A study of Mus musculus with 4 samples.

Results

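Epx, which encodes eosinophil peroxidase, was described together with 9 other genes of myeloid leukocytes in RNA-seq libraries of mouse embryonic germ cell preparations. The 10 genes were 3 granule genes (Epx, Mpo and Prg2), 5 genes of macrophages and monocytes (Csf1r, Cx3cr1, Lyz2, C1qa and Adgre1) and 2 genes carried by most or many leukocytes (Ptprc and Tyrobp). They were taken by symbol, through their Ensembl identifiers, from a table of 53715 genes, and all 10 were found. They were selected on their counts in these same 4 libraries, that is, on the contrast between the labels. Levels and differences of the 10 genes between the groups are therefore descriptions, with no test.

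There were 4 libraries from C57BL/6 embryos at E12.5, prepared from what is labelled as primordial germ cells, from which eggs and sperm descend. Magnetic sorting (MACS) gave the cells, and 1000 cells went into each library by a modified Smart-seq2 protocol, which copies full-length cDNA, with Tn5 tagmentation. Both groups share strain, stage and sorting; 2 libraries carry the genotype wild type (WT) and 2 the genotype Rif1 knockout (Rif1_KO). Neither the deleted stretch of Rif1, nor the antibody of the sort, nor whether replicates stem from different embryos is given in the labels, so p-values measure only how far these libraries differ, which may be technical.

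Eosinophils and neutrophils are white blood cells that store enzymes in granules. Eosinophil peroxidase and myeloperoxidase are haem enzymes that use hydrogen peroxide to make toxic oxidants, and Prg2 encodes major basic protein, the core protein of the eosinophil granule. Macrophages seed the embryonic gonad early and are recognised there by the growth factor receptor Csf1r, the chemokine receptor Cx3cr1, the surface protein F4/80 (Adgre1) and the complement subunits of C1q. Granulocytes also carry Ptprc (CD45) and Tyrobp, an adaptor of activating receptors.

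The peroxidase genes are close relatives, so the sequences show first how far their reads can be told apart. Epx (ENSMUSG00000052234.2) lies on chromosome 11 from 87864000 to 87875536 on the minus strand of mm10, and Mpo (ENSMUSG00000009350.13) lies on the same chromosome from 87793581 to 87804413 on the plus strand, with Lpo and Mks1 between them. Aligned end to end, the coding sequences of Epx (2148 bases) and Mpo (2154 bases) were identical at 70.4% of aligned bases, and those of Epx and the lactoperoxidase gene Lpo at 59.1%. The longest run of bases that the coding sequences of Epx and Mpo share has 26 bases and starts at base 1708 of the Epx coding sequence and base 1711 of that of Mpo:
Epx and Mpo: ccaggatacaatgcctggagacgctt
No stretch of 50 bases of an Epx transcript occurred in a transcript of any other gene of GENCODE M21, and no other gene model of the counts table overlaps an exon of Epx. Counts of Epx are thus not shared with Mpo over a stretch of that length.

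The stretch before the start site of Epx is printed because Epx was high in 2 libraries while its relative Mpo was low in all 4. It covers 250 bases (RefSeq, GRCm38.p6, chr11:87875537-87875786, minus strand), with capitals for the only match to the letters searched:
Epx: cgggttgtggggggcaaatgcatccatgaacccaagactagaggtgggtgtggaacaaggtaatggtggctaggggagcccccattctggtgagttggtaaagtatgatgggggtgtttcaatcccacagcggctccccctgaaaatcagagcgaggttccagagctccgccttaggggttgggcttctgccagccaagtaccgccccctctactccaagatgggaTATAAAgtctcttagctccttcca
Mpo: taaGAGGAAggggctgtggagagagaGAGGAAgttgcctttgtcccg
The 4 motifs searched on both strands were GAGGAA, a core bound by ETS factors such as PU.1, AGATAA for GATA factors, CCACCC for KLF factors, and TATAAA. Epx held 1 match to TATAAA, at base -24 from the start site, and none to the other 3 in this window. The window of Mpo held 2 matches to GAGGAA, at bases -247 and -224, and none to the others. For Mpo only the 47 bases outside the gene model of the counts table are shown (chr11:87793534-87793580, plus strand), with the GAGGAA matches in capitals. Of 32851 windows of the same length, 23.3% held GAGGAA, 9.99% AGATAA, 28.1% CCACCC and 12.4% TATAAA, and no matches overlapped in the windows shown.

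Depth and labels set the frame for what follows. Totals were 11724630 to 14421298 counts per library. Rif1 itself had 474 counts in WT 1 and 44 in WT 2, against 1144 in Rif1_KO 1 and 1207 in Rif1_KO 2 (all pairs of values below have replicate 1 first). Scaled to 1000000 counts of each library after TMM normalization (CPM), this was 43.7 and 4.73 against 86.2 and 63.9. Its count was thus higher, not lower, under the label Rif1_KO (fitted log2 fold change 1.63, SE 1.01), and does not bear out the labels. A count over the whole gene cannot show whether the deleted stretch, which the labels do not give, is missing. Libraries are named by label throughout. Germ cell markers were summed over a list of 12 genes and reached 56.9 and 472 CPM under WT against 37.5 and 37.4 CPM under Rif1_KO. Of its 9 tested genes 4 were lower and 1 higher at an unadjusted edgeR p under 0.05, and 0 passed after adjustment (3 lower by DESeq2). Over all 15466 tested genes, 3.05% were lower and 5.35% higher at that unadjusted p, and DESeq2 called 192 lower and 329 higher. Dazl, an RNA-binding protein of germ cells, had 13 and 196 against 2.03 and 4.08 CPM, and Prdm14, a regulator of early germ cells, 19.9 and 18.4 against 0.452 and 0.106 CPM.

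Epx was abundant in both libraries labelled WT and close to absent in both labelled Rif1_KO. It had 856 and 450 counts in the libraries labelled WT, and 6 and 3 counts in those labelled Rif1_KO. The groups of Epx did not overlap on raw counts, on CPM or per deposited total. The level was 78.9 and 48.4 CPM against 0.452 and 0.159 CPM, or 63.6 ± 21.6 against 0.306 ± 0.207 CPM (SD, n = 2 each). Per total counts, the summed counts of 1306 and 9 gave a ratio of 157 (95% interval 82.4 to 344, exact binomial, counting error only), and single pairs of libraries gave 77.2 to 322. The fitted log2 fold change was -7.69 (SE 1.16), with a median of -0.11 over all tested genes. A value as low or lower was fitted to 12 of the tested genes (0.0776%), Epx included. Of the 10 genes, 3 (Epx, Ptprc and Csf1r) passed the filter on low counts. By raw counts the groups did not overlap for 2 of the 10, Epx and Ptprc, with lower values under Rif1_KO, and for 1, Tyrobp, with higher values. By TMM-scaled CPM these were 5 (Epx, Mpo, Ptprc, Cx3cr1 and Adgre1) and 1. Among all tested genes 18.4% were lower and 21.0% higher in this sense; the contrast chose the 10 genes, and nothing is read from these shares. In bulk libraries such as these, fewer cells that carry a transcript and less of it per cell cannot be told apart.

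The other granule genes did not share this pattern. Mpo had 5 and 10 counts in the WT-labelled libraries, against 6 and 2 in the Rif1_KO-labelled ones. Levels between genes are compared here per length, as RPKM (CPM per 1000 bases of exon). On that scale Epx reached 28.8 and 17.7 RPKM in the libraries labelled WT, where Mpo reached 0.135 and 0.314 RPKM. By raw counts the Mpo groups overlap, while by CPM they are 0.461 and 1.08 against 0.452 and 0.106. An exon of the antisense model Gm11505 covers 512 bases of Mpo but had 0 counts in every library. Prg2 had 3 counts in the library labelled WT 1 and 0 in the other 3, and its paralogue Prg3 had 1, 4, 0 and 2 counts. At 0 counts, up to 3 counts in a library are allowed by counting error, so no fold is given for Prg2. Of the 8 other genes on a list of eosinophil granule proteins and receptors, 6 had under 10 counts in every library. The exceptions were Siglecf, with 6 and 3 counts against 120 and 138, and Ccr3, with 2 and 3 against 6 and 22. Both were higher under the label Rif1_KO, opposite to Epx. The receptor for interleukin 5, Il5ra, through which eosinophils are sustained, had 4 and 6 counts against 7 and 4. The ribonuclease genes Ear1, Ear2 and Ear6, also products of eosinophil granules, had 0 to 2 counts in each library.

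**Figure D1:**
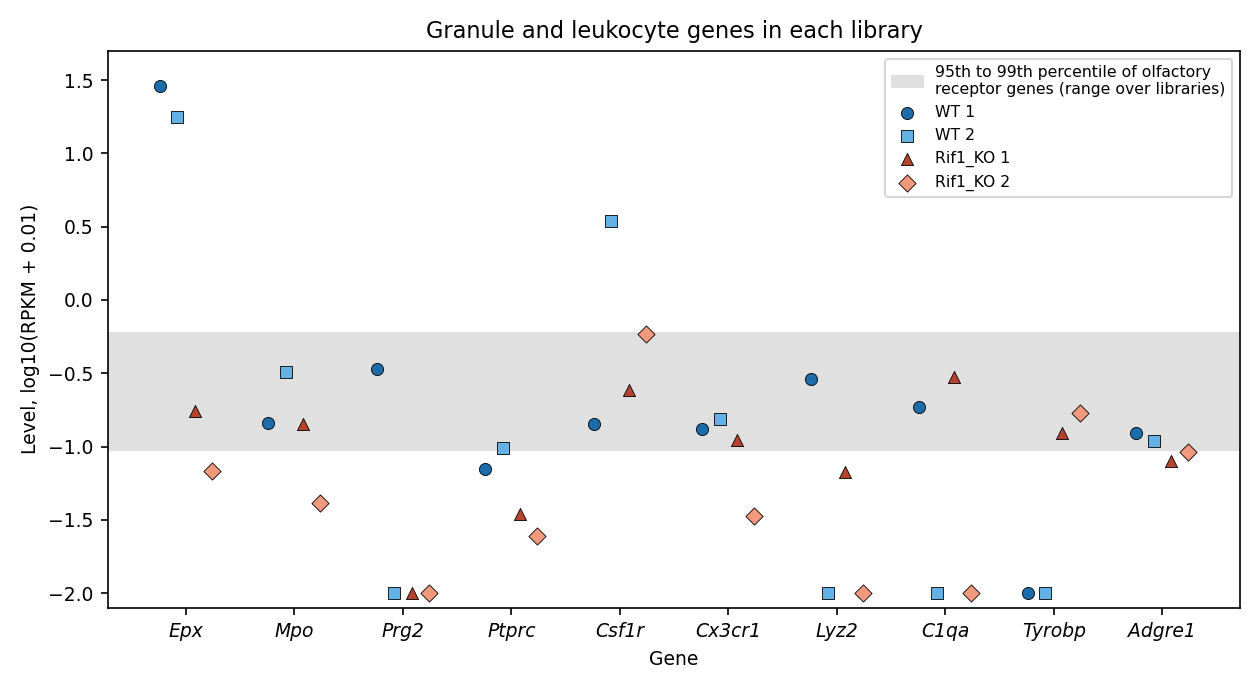
Level of the 10 genes in each library, as log10(RPKM + 0.01); points at -2 are genes with 0 counts. The grey band spans the 95th to 99th percentiles of 1107 olfactory receptor genes over the 4 libraries, from 0.0848 to 0.582 RPKM; Epx in the libraries labelled WT (28.8 and 17.7 RPKM) and Csf1r in WT 2 (3.46 RPKM) lie above it.

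Among genes of macrophages and monocytes, most counts were few in every library. Adgre1 had 4 and 3 counts in the WT-labelled libraries, against 3 and 5 in the Rif1_KO-labelled ones. Cx3cr1 had 6 and 6 against 6 and 2. These values lie within a few counts of each other, and by raw counts the groups touch or overlap. C1qa had 2 and 0 counts against 4 and 0. Its partner subunits of the C1q complex had 3 and 1 against 5 and 2 counts for C1qb, and 5 and 1 against 1 and 61 for C1qc. C1qc thus stood out in the library labelled Rif1_KO 2 alone, without the other 2 subunits. Lyz2, which encodes the lysozyme of macrophages and granulocytes, had 4 and 0 counts against 1 and 0, and Lyz1 had 1 and 0 against 2 and 1. The coding sequences of Lyz1 and Lyz2 are identical at 422 of 444 bases with a shared run of 118, so reads of the pair may be assigned to either copy or lost to the mapping quality limit, and both counts are uncertain.

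Csf1r, the receptor for the macrophage growth factor CSF1, was the exception among these genes. It had 7 and 157 counts in the WT-labelled libraries, against 15 and 53 in the Rif1_KO-labelled ones. The WT pair spans the Rif1_KO pair, and the mean under the label WT, 8.76 ± 11.5 CPM against 1.97 ± 1.19 CPM (SD, n = 2 each), rests on replicate 2. The fitted log2 fold change of -2.14 (SE 1.75) became 1.6 without WT replicate 2. Exons of Hmgxb3, on the opposite strand, share 871 bases with Csf1r (ENSMUSG00000024621.15, chromosome 18, 61105572 to 61132149). Hmgxb3 had 12, 147, 15 and 56 counts in the same 4 libraries, close to the counts of Csf1r in each. Reads were counted without regard to strand and for every gene they overlap, so the counts of Csf1r cannot be told apart from those of Hmgxb3.

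Leukocyte genes of wider use were low as well. Ptprc (CD45, a phosphatase on the surface of white blood cells) had 12 and 15 counts in the WT-labelled libraries, against 6 and 5 in the Rif1_KO-labelled ones. The groups do not overlap, but over 18313 bases of exon this comes to 0.0604 and 0.0881 RPKM against 0.0247 and 0.0145 RPKM. Its fitted log2 fold change was -1.91 (SE 0.93), and it was -2.23 to -1.5 with 1 library left out. Tyrobp had 0 and 0 counts against 1 and 2, so no fold is given.

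A set of genes that gonadal cells have little reason to transcribe gave a measure of stray counts. The 1107 olfactory receptor genes (symbols of the form Olfr and a number), chosen for this purpose after the values had been seen, had a median of 1 to 2 counts per library, and 57.9% to 75.5% of them had at least 1 count. The highest count of any of them was 54 and 171 in the WT-labelled libraries, against 116 and 138 in the Rif1_KO-labelled ones. Their 95th percentile was 0.193 and 0.284 RPKM in the WT-labelled libraries, against 0.163 and 0.0848 RPKM in the Rif1_KO-labelled ones. In each library 7 of the 9 genes other than Epx were at or below that percentile. Csf1r was above the 99th percentile in WT 2 and Rif1_KO 2, and no other of the 9 was above it in any library. Epx itself was above all olfactory receptor genes in the libraries labelled WT. In those labelled Rif1_KO, 95% and 89.5% of olfactory receptor genes had the level of Epx or less. The other 9 genes together had 43 and 191 counts under WT, against 42 and 69 under Rif1_KO. Without Csf1r, 8 genes had 36 and 34 against 27 and 16, and Epx alone 856 and 450 against 6 and 3.

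The genes next to Epx did not follow it. Within 100 kb on either side lie 10 other gene models, among them Mpo, Lpo and 3 olfactory receptor genes. Lpo, the peroxidase of milk and saliva, had 1 and 11 counts in the WT-labelled libraries, against 3 and 3 in the Rif1_KO-labelled ones. Mks1, a gene of the primary cilium whose model ends close to the last exon of Epx, had 9 and 4 counts against 178 and 17, highest where Epx was low. The other 8 models had at most 17 counts in any library, and the groups of Tspoap1, next to Mpo, were 17 and 16 against 17 and 17 counts.

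**Figure D2:**
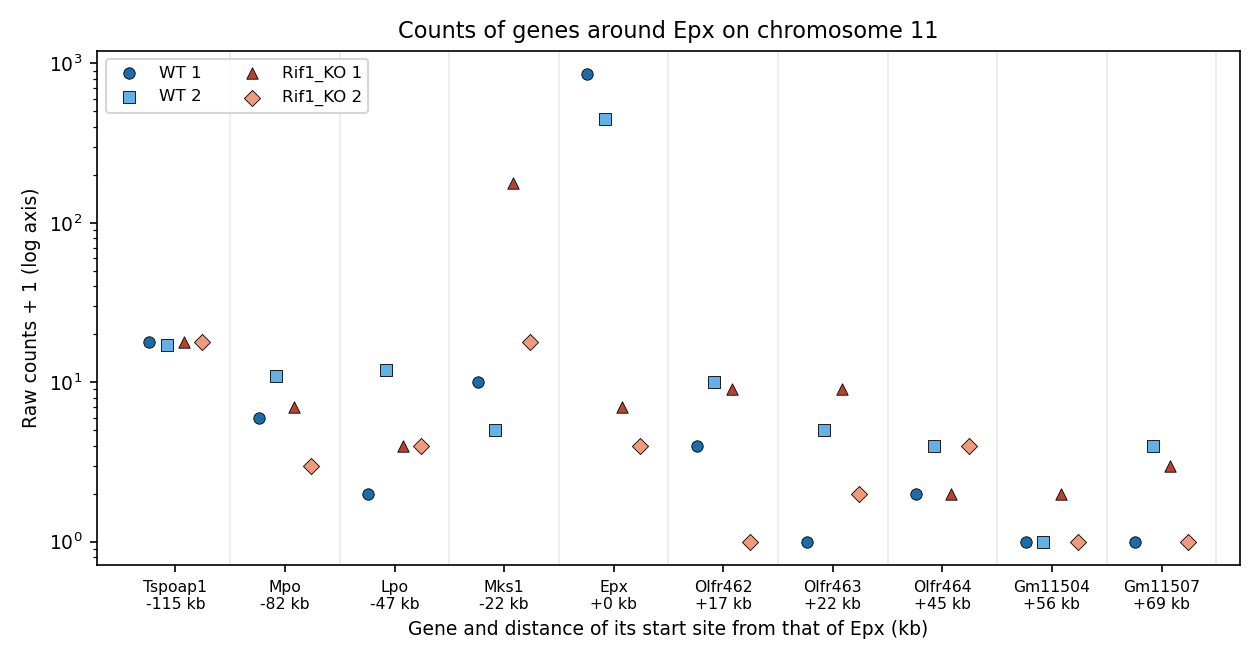
Raw counts plus 1, on a log axis, of the gene models within 100 kb of Epx in each library, in the order of the chromosome, with the distance of each start site from that of Epx in kb. Gm11505, at 0 counts in all libraries, is not drawn; Epx in the libraries labelled WT (856 and 450 counts) and Mks1 in Rif1_KO 1 (178 counts) stand above the rest.

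Genes with the profile most like that of Epx over the 4 libraries were found by Euclidean distance between log2(CPM + 0.5) values centred on each gene's mean, among the 15466 tested genes. The nearest 5 were Sult1a1, Dyrk3, Thoc5, Hdac8 and Kel, at distances of 0.543 to 1.03, where the median gene was at 6.58. Sult1a1, a phenol sulfotransferase, had 408 and 286 counts in the WT-labelled libraries, against 3 and 0 in the Rif1_KO-labelled ones. Dyrk3, a protein kinase, had 391 and 257 against 3 and 1. Kel, which encodes the Kell blood group glycoprotein of red cells, had 589 and 197 against 8 and 2. All 5 were high in both libraries labelled WT (21.2 to 69.0 CPM) and at 0 to 1.43 CPM in those labelled Rif1_KO. Both this pattern and the short distances follow from the choice by the values of Epx, so nothing is read from them. The RNA export factor gene Thoc5 had 704 and 642 against 19 and 10 counts, and the deacetylase gene Hdac8 287 and 251 against 4 and 0. Sgf29, on the opposite strand, shares 61 exon bases with Sult1a1 and had 235, 216, 475 and 565 counts.

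Transcripts of red blood cells were high in the same libraries as Epx. A list of 15 erythroid markers, all tested, summed to 138800 and 113200 CPM under WT, against 9903 and 4267 CPM under Rif1_KO. For all 15 the fitted log2 fold change was negative (median -4.04, beside -0.11 for all tested genes). At an unadjusted edgeR p under 0.05, 11 were lower, where 3.05% of all tested genes were. The alpha-globin genes Hba-a1 (log2 fold change -4.05) and Hba-a2 (-4.04) fell under the label Rif1_KO (edgeR quasi-likelihood test, adjusted p = 0.0360 for each), and they were the only genes of the table to pass; lower calls made up 0.0129% of tested genes and higher calls 0.0%. Hba-a1 and Hba-a2 are near-identical copies, so reads may be split between them, and their calls were lost with upper-quartile factors and with the filter at 50 counts. DESeq2 called 10 of the 15, all lower, beside 192 lower and 329 higher of all 15466 tested genes. Klf1, a transcription factor of red cell precursors, was at 0 counts in Rif1_KO 2, and no other of the 15 was at 0 in any library. Whether red cells have a part in the values of Epx was not tested.

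By ratio of means, Epx differed more between the labels than haemoglobin did; the difference between these ratios was not tested. The ratio of mean CPM, WT over Rif1_KO, was 208 for Epx and 17.8 for the sum of haemoglobin genes. It was 82.1 for the red cell membrane protein Ermap and 75.2 for the anion exchanger Slc4a1. Per 10000 counts of all haemoglobin genes there were 5.70 and 4.30 counts of Epx under WT, against 0.458 and 0.375 under Rif1_KO. Per 10000 counts of the embryonic globin Hbb-y there were 24.4 and 28.8 under the label WT, against 3.16 and 32.2 under the label Rif1_KO. For the embryonic globin gene Hba-x these values were 26.2 and 21.1 against 1.52 and 53.2. For Hbb-bh1, also embryonic, they were 549 and 481 against 43.6 and 811. The values of Rif1_KO 2 were thus above those under WT, but they rest on 3 counts of Epx, within the range of stray counts. The embryonic globins were themselves low in that library, with 49.4 CPM of Hbb-y against 1430 CPM in Rif1_KO 1.

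**Figure D3:**
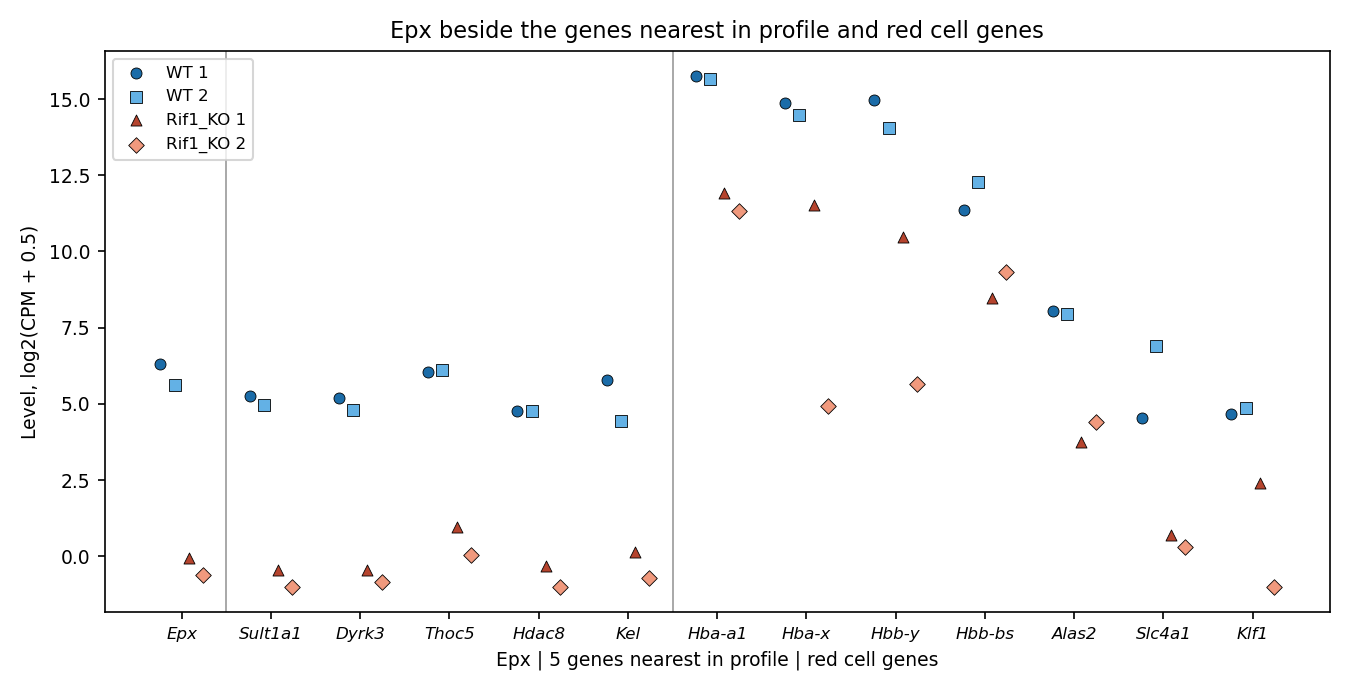
Level in each library, as log2(CPM + 0.5), of Epx, of the 5 genes nearest to it in profile and of 7 red cell genes. Epx and its 5 nearest genes lie at 21.2 to 78.9 CPM in the libraries labelled WT and at 0 to 1.43 CPM in those labelled Rif1_KO; Hbb-y differs between the Rif1_KO libraries (1430 and 49.4 CPM).

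Other genes of white blood cells were read from 8 lists that hold 84 genes beside the 10 described. Only 16 of the 84 passed the filter on low counts, and 46 (54.8%) had under 10 counts in every library. None of the 16 passed the edgeR test over all genes. On simulated counts with the same spread for every gene, that test recovered 30.6% of 64-fold changes and none of 16-fold ones. At an unadjusted edgeR p under 0.05, 2 of the 16 were lower and 2 higher under the label Rif1_KO. Over all tested genes 3.05% were lower and 5.35% higher. The 16 had a median log2 fold change of 0.46, beside -0.11 for all tested genes. DESeq2 called 2 of them, Lcp1 lower and Siglecf higher, beside 192 lower and 329 higher of all tested genes.

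Granule and receptor genes of the 3 granulocyte lists gave few values above stray counts. Siglecf, a lectin of eosinophils, was the only tested gene of its list, with 6 and 3 counts in the WT-labelled libraries, against 120 and 138 in the Rif1_KO-labelled ones, opposite in direction to Epx. Its fitted log2 fold change was 4.19, with an edgeR adjusted p of 0.571. Of 4 other neutrophil primary granule genes, 1 was tested: Prtn3 (proteinase 3), with 2 and 1 against 54 and 19 counts (adjusted p = 0.571), but Plppr3 on the opposite strand shares 159 of its exon bases. Elane, the neutrophil elastase gene, had 0 to 3 counts per library. Of 12 late neutrophil granule and receptor genes 2 were tested, the gelatinase gene Mmp9 with 99 and 12 against 7 and 3 counts (adjusted p = 0.584) and the receptor gene Csf3r with 19 and 9 against 10 and 2 (0.749). The calprotectin subunit genes, of the neutrophil cytosol, had 0 to 3 counts in every library for S100a9, and 0 and 0 against 29 and 1 for S100a8. The mast cell and basophil list had 2 of 10 genes tested, Hdc with 8 and 9 against 70 and 40 counts (adjusted p = 0.687) and Cpa3 with 250 and 3 against 50 and 0 (0.828).

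Lists of mononuclear and pan-leukocyte genes also held few tested genes. Of 16 other macrophage genes 3 were tested, and all 3 had a fitted log2 fold change above 0 (0.71 to 1.54, median 0.86). The coagulation factor gene F13a1 had 5 and 2 against 17 and 14 counts (edgeR adjusted p = 0.715), and Mertk, a receptor for the uptake of dead cells, had 49 and 12 against 64 and 89 (0.928). The microglial and macrophage lysosome gene Ctss had 0 to 6 counts per library, and Cd68 had 0 to 4. None of 6 monocyte genes and none of 11 lymphoid genes was tested. Of 17 pan-leukocyte genes 7 were tested, with a median log2 fold change of 0.16 that ranged from -1.76 to 0.39 over the alternatives and was negative in 5 of 12. The actin-bundling gene Lcp1 had 101 and 185 counts in the WT-labelled libraries, against 13 and 26 in the Rif1_KO-labelled ones (adjusted p = 0.577). The phosphatase gene Ptpn6 had 4 and 11 against 48 and 139 (adjusted p = 0.632).

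Partners of the 10 genes in their pathways were read as well. In these lists 0 tested genes passed with edgeR, and Syk was the only one with an unadjusted p under 0.05 and the only one called by DESeq2, as higher. Haematopoietic transcription factors had 6 of 10 tested, 5 of them below 0, with a median of -0.29 that became 0.57 without WT replicate 2. PU.1 (Spi1), the factor that directs myeloid fate, had 6 and 4 counts in the libraries labelled WT against 7 and 5, and the granulocyte factor Cebpe had 0 to 2 per library. Irf8, of monocytes, had 14 and 13 against 8 and 8 counts (edgeR adjusted p = 0.730), and Myb, of progenitors, 110 and 7 against 6 and 30 (0.747). Ligands and signalling partners had 3 of 10 tested, with a median of -0.78 that became 5.20 with the filter at 50 counts. Among them Syk, the kinase recruited by the Tyrobp adaptor, had 3 and 2 against 180 and 104 counts (log2 fold change 5.22, adjusted p = 0.571). Cx3cl1, the ligand of Cx3cr1, had 38 and 320 against 5 and 44 counts (adjusted p = 0.629). The genes of the macrophage growth factors Csf1 and Il34 had at most 16 and 6 counts, and that of interleukin 5 at most 5.

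The remaining haem peroxidases and the oxidase that feeds peroxidases in phagocytes gave other patterns than Epx. Of 7 other animal haem peroxidase genes 5 were tested, with a median log2 fold change of 0.53 (-0.20 without Rif1_KO replicate 1 and -0.10 with the filter at 50 counts); 0 passed with edgeR or DESeq2, and 0 had an unadjusted p under 0.05, as in the NADPH oxidase list. The prostaglandin synthase genes Ptgs1 and Ptgs2 had 0 and 13 against 73 and 28 counts (edgeR adjusted p = 0.777) and 1 and 5 against 16 and 25 counts (0.668). The NADPH oxidase list had 3 of 6 genes tested, with a median of -0.72 that became 0.37 with the filter at 50 counts. Cybb, its catalytic subunit in phagocytes, had 3 and 2 counts against 7 and 1. Its regulatory subunit gene Ncf4 had 154 and 17 against 4 and 47 counts (edgeR adjusted p = 0.749).

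Markers of other cell types that the preparations could hold were summed beside these lists. Megakaryocyte genes summed to 7.37 and 4.30 CPM against 6.33 and 1.96 CPM, with 2 of 8 tested (Gp1bb, adjusted p = 0.717, and Itga2b, 0.862), 0 at an unadjusted p under 0.05 and a median of 0.34 that was negative in 5 of 11 alternatives (-1.91 to 0.70 over all). Gp1bb shares 593 exon bases with Sept5 on the same strand, so their counts cannot be told apart. Stromal genes summed to 324.5 and 230.7 CPM under WT, against 1120 and 1021 CPM under Rif1_KO. All 7 were tested, and 5 were higher at an unadjusted edgeR p under 0.05, beside 5.35% of all tested genes. The median log2 fold change of the 7 was 1.84. Dcn and Col1a1 had the smallest edgeR p (adjusted p = 0.571 each). DESeq2 called Lum, higher, beside 329 higher of all tested genes. Endothelial genes summed to 264.6 and 120.6 CPM against 77.6 and 154.9 CPM, with all 8 tested, 0 at an unadjusted p under 0.05 and a median of -1.17 that became 0.36 without WT replicate 1. Eng had 55.4 and 10.2 CPM against 1.66 and 6.52 CPM (adjusted p = 0.626), and Pecam1 53.0 and 64 against 4.75 and 36.4 CPM (0.747). Whether any of these cells have a part in the values of the 10 genes was not tested.

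**Figure D4:**
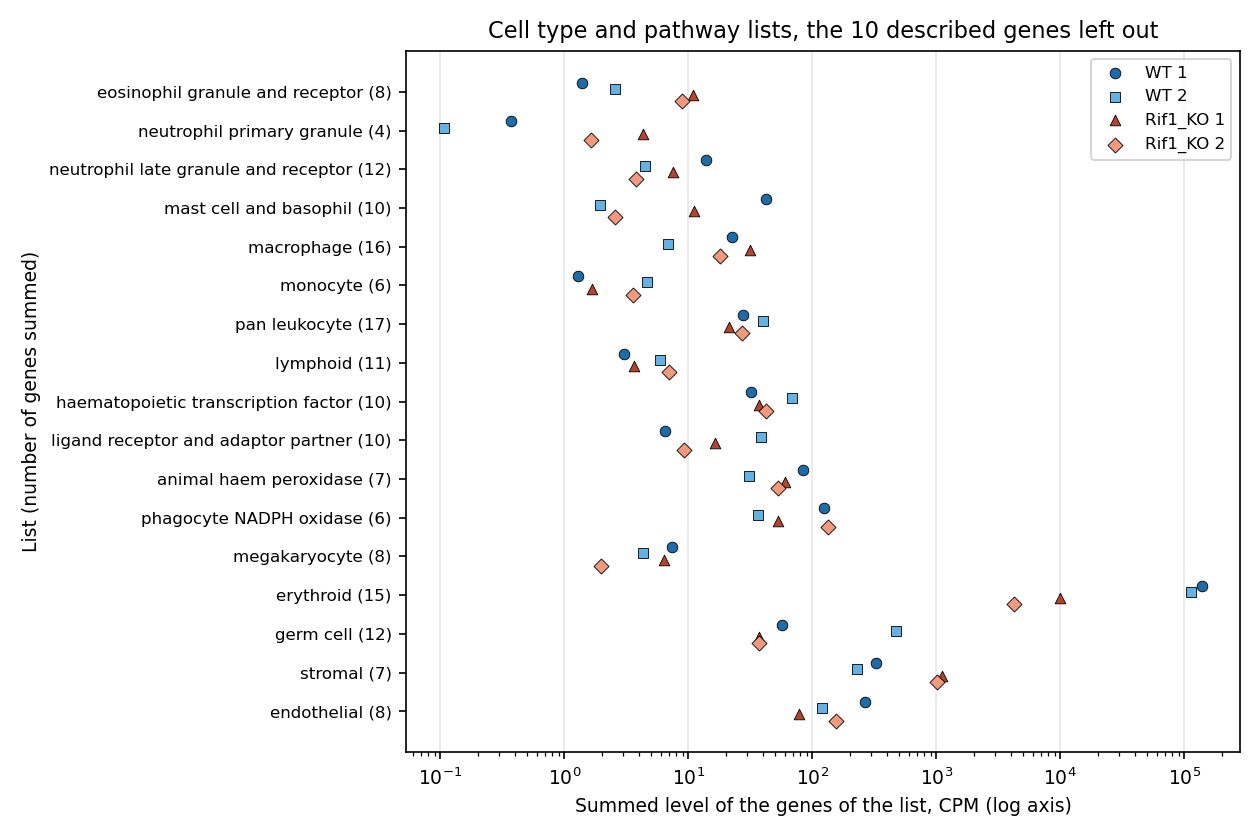
Summed level in CPM, on a log axis, of the genes of each list in each library, with the 10 described genes left out and the number of genes summed in brackets. The erythroid list (138800 and 113200 against 9903 and 4267 CPM) separates the labels. The 8 lists from eosinophil to lymphoid stay below 50 CPM in every library. The phagocyte NADPH oxidase list (125 and 36.2 against 52.9 and 134 CPM) and the haematopoietic transcription factor list (68.4 CPM in WT 2) reach higher.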

How the data were processed

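The authors deposited a table of raw counts, genes in rows and the 4 libraries in columns. Per the file headers, featureCounts 1.6.2 counted read pairs on GENCODE M17 with a mapping quality of at least 30, for every gene overlapped and with no strand option; gene length, the other column used, is the exon length in bases per the file headers. Per the submitters' processing notes, Trim Galore, HISAT2 and SAMtools were used with mm10. Symbols were found for 53620 of 53715 identifiers. Replicates differed by more than sampling noise (chi-square per degree of freedom 107 for WT, 86.6 for Rif1_KO).

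Genes kept by filterByExpr (minimum count 10), 15466, were tested with edgeR 4.0.16 in R 4.3.3 (quasi-likelihood, TMM factors 0.800 to 1.32, Benjamini-Hochberg at 0.05, all 4 libraries, no covariate). SE is the log2 fold change over the square root of F. Promoter windows (250 bases before the start) are from RefSeq on GRCm38.p6, which is mm10, and were held for 5 of the 10 genes; transcripts are from GENCODE M21. The 10 genes, the lists and the motifs were chosen with earlier results of these data known. Genes named are the 10, their subunits and paralogues, up to 4 passing genes of a list or else the 2 with the smallest p, and the 5 nearest to Epx; other list genes were named after their values were seen, and a few genes that the rule names are not reported here. The edgeR step was also run on simulated counts that gave every gene the same spread, which the real genes do not have. It made no false call there and recovered 30.6% of 64-fold and 74% of 256-fold changes, but none of 4-fold or 16-fold ones. Hba-a1 passed in the real data at a log2 fold change of -4.05 (SE 0.30), so these shares need not hold for single genes. A gene that did not pass may still differ. DESeq2 1.42.0 and limma-voom (limma 3.58.1) were alternatives.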

Additional observations from a re-analysis of the deposited data

How the results depend on the processing

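The log2 fold change of Epx stayed below 0 under all 12 alternatives, between -8.49 and -7.06, and those bounds came from leaving out 1 library. The number of genes called was 2. It was 0 with upper-quartile factors, 0 with the filter at 50 counts, 0 with haemoglobin and rRNA-region genes left out (an alternative added after seeing the data), 54 without the filter on low counts, 521 with DESeq2, and 5 to 1345 with 1 library left out: 1345 without WT 1, 890 without WT 2, 8 without Rif1_KO 1 and 5 without Rif1_KO 2 (a library left alone in its group is assumed to have the spread of the other group). RLE factors and limma-voom each gave 2. Of the 84 leukocyte list genes, 0 were called, against 2 with DESeq2 and 0 to 1 with 1 library left out (Cma1, lower without WT replicate 2). With the replicate number as a block edgeR called 7 genes, and Epx had -7.77. Same-numbered libraries did not deviate together from their group means over the tested genes (correlation -0.0234). With 2 libraries per group both pairs give this same value. It cannot show whether same-numbered libraries share an origin, which the labels do not give. Over all tested genes the median log2 fold change came to -0.195 with RLE factors and 0.164 with upper-quartile factors. Of 15 list medians, 10 changed sign under at least 1 alternative, and those of the eosinophil, primary neutrophil, macrophage, erythroid and stromal lists did not. In the main fit the eosinophil and primary neutrophil medians are 1 tested gene each, Siglecf and Prtn3, and the macrophage median rests on 3. They thus say little about those lists. Without the filter on low counts the eosinophil median, over 8 genes, was 0.19 instead of 4.19. The late neutrophil median was -2.79, but 2.37 without WT 1, 2.56 without WT 2 and 1.18 without Rif1_KO 2. The mast cell median was -0.27, but ranged from -7.18 to 2.29, and the germ cell median of -1.63 became 0.04 without WT 2. Mpo, Prg2, Lyz2, C1qa, Tyrobp, Cx3cr1 and Adgre1 did not pass the filter on low counts in the main fit. Whether they differ was therefore not tested, and at these counts a modest difference may go unseen.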

Other observations

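The mast cell chymase gene Cma1 was high in a single library. It had 199 counts in the library labelled WT 1 and 2, 1 and 1 counts in WT 2, Rif1_KO 1 and Rif1_KO 2. Cpa3, the carboxypeptidase of mast cell granules, had 250 counts in WT 1, 50 in Rif1_KO 1, 3 in WT 2 and 0 in Rif1_KO 2. The other tryptase and chymase genes of the list, Tpsb2, Tpsab1 and Mcpt4, had 0 to 11 counts in each library. These genes were chosen after their values were seen.

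Several other white blood cell genes also had most of their counts in 1 library and few in the rest. The platelet chemokine gene Pf4 had 105 counts in Rif1_KO 1 and 1 or 2 in the others. The B cell receptor gene Cd79a had 64 counts in Rif1_KO 2 and 5 to 7 in the others, Ms4a6c 52 and at most 1, and the collagenase gene Mmp8 53 and at most 6. The model BE692007, on the opposite strand, shares 1088 exon bases with Ms4a6c and had 22 counts in Rif1_KO 2. Single olfactory receptor genes reached 116 counts in Rif1_KO 1 and 138 in Rif1_KO 2, more than Pf4, Cd79a, Ms4a6c and Mmp8 had there. High counts in 1 library thus also occurred among the genes used to measure stray counts. No test was run on these white blood cell genes singly.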
